A study of Mus musculus with 6 samples.

Results

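The proteasome genes of activated mouse B cells were taken as the protein-coding genes whose symbol is Psma, Psmb, Psmc, Psmd or Psme followed by a digit. The rule found 45 genes of the 54446 in the deposited values, of which 21918 are protein-coding. Of these, 43 reached a mean of 10 normalized counts over the 6 libraries and were tested, among 12322 genes tested in all. The 45 genes were 7 alpha and 7 beta subunits of the core particle, the 3 inducible catalytic subunits of the immunoproteasome, 6 ATPases and 11 other subunits of the regulatory cap, 3 chaperones of cap assembly, 5 activators, 2 tissue-restricted core subunits and 1 gene, *Psmc3ip*, that has only the name in common. *Psmc3ip* encodes a factor of meiotic recombination and is listed apart. A further 4 pseudogenes that carry a proteasome subunit symbol are outside the rule, and 0 of them had a fragment in any library.

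The study asked how loss of TENT5C, a cytoplasmic poly(A) polymerase, acts on mRNA in B cells. Naive B cells were taken from spleens of TENT5C KO mice and WT littermates of mixed C57BL/6J X CBA strain, 12 to 15 weeks old, by immunomagnetic negative selection. Both genotypes were cultured for 7 days with LPS at 20 µg/ml and IL-4 at 20 ng/ml, so no unstimulated cells enter the comparison, and ribodepleted RNA was sequenced in 3 KO and 3 WT libraries. A KO and a WT library with the same number come from littermates and form a pair, which is also the batch of the labels. The KO line was made with CRISPR/Cas9, its exact lesion is not given in the sources used here, and the cells were not sorted after culture.

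The libraries held 5393558 to 6793520 fragments on genes. Transcripts of *Tent5c* itself, at 1993, 993 and 1170 normalized counts in KO libraries 1, 2 and 3 and 1255, 767 and 1585 in WT libraries 1, 2 and 3, were not lower in KO (log2 fold change 0.20 ± 0.19 (SE), adjusted p = 0.970 in limma; -0.03 without pair 1), so the mRNA level does not check the genotype labels, and KO and WT below name libraries by their labels. B cell markers summed to 50233 to 58298 normalized counts in KO and 55759 to 57584 in WT, and all 8 passed the mean of 10. Plasmablast markers (7 of 8 passed) ranged from 13025 to 21735 in KO and from 13181 to 26130 in WT, with no gene of either list called. The median log2 ratio of KO to WT of the plasmablast markers was 0.34, 0.006 and -0.50 in pairs 1, 2 and 3. Pairs 1 and 3 thus differed in opposite directions. Of the markers of other cells, 2 of 10 T cell genes, 3 of 10 myeloid genes, 2 of 6 NK cell genes and 0 of 7 erythroid genes passed the mean of 10. Their sums in KO and WT were 457 to 553 and 464 to 565 for T cells, 33.4 to 180 and 85.7 to 169 for myeloid cells, 21.9 to 79.0 and 19.9 to 66.2 for NK cells, and 2.72 to 5.72 and 0 to 5.23 for erythroid cells. The 2 T cell genes that passed were *Thy1*, at up to 445 normalized counts, and *Lck*, at up to 166. The 3 myeloid genes that passed were *Lyz2*, *Csf3r* and *Adgre1*, at up to 85.9, 78.3 and 37.8. Among genes that did not pass, *Cd3e* reached at most 4.82 and *Cd4* at most 10.8. *S100a8*, *S100a9*, *Fcgr1*, *Hba-a1*, *Hba-a2* and *Hbb-bs* were at 0 in every library. A small share of other cells is therefore not excluded. In bulk RNA, a smaller share of cells that express a gene and less of its RNA per cell cannot be told apart.

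The proteasome degrades proteins marked with ubiquitin. Its core particle is a barrel of alpha and beta rings, with the catalytic sites on certain beta subunits inside, and a cap of ATPases and other subunits recognizes, unfolds and feeds in the substrate. In lymphoid cells and after interferon, the inducible subunits *Psmb8*, *Psmb9* and *Psmb10* are built into new core particles in place of *Psmb5*, *Psmb6* and *Psmb7*, which alters the peptides that reach MHC class I. B cells that turn into antibody-secreting cells carry a heavy load of newly made protein, and proteasome function in such cells is of interest because plasma cell tumours are treated with proteasome inhibitors.

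The stretches before the RefSeq start sites of 4 catalytic subunit genes are shown because each holds 1 of the motifs counted below and because that of *Psmb9* is shared with its neighbour *Tap1*. They are RefSeq sequences on GRCm38.p6, written 5′ to 3′ on the strand of the gene and ending at the base before the RefSeq start site. They are chr14:54617996-54618075 on the minus strand for *Psmb5*, chr11:70525277-70525356 on the plus strand for *Psmb6*, chr17:34198075-34198194 on the plus strand for *Psmb8* and chr17:34187331-34187555 on the minus strand for *Psmb9*. Capitals mark TGACNNNGC, the core of the antioxidant response element read by NFE2L1 and its relatives, in *Psmb5* and *Psmb6*. In *Psmb8* they mark TTCNNNGAA, the palindrome of STAT sites, and in *Psmb9* a CCAAT box on the opposite strand.
Psmb5: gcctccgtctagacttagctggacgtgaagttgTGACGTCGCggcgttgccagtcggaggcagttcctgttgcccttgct
Psmb6: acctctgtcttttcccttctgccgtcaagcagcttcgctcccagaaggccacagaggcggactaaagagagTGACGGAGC
Psmb8: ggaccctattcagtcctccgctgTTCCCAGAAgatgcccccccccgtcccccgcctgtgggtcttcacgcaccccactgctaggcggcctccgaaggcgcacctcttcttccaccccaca
Psmb9: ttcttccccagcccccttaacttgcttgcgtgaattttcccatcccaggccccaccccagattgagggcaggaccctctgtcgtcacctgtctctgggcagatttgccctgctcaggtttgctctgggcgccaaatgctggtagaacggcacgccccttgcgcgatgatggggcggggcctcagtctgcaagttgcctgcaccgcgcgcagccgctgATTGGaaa

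The *Psmb9* stretch is the whole interval between the RefSeq start of *Psmb9* at 34187330 and that of *Tap1*, a subunit of the transporter that carries peptides into the endoplasmic reticulum, at 34187556. Its 225 bases lie before the RefSeq start of both genes, which run in opposite directions. In the Gencode vM21 gene models used here for positions and lengths, *Psmb5*, *Psmb8* and *Psmb9* begin further upstream. The stretches printed for *Psmb8* and *Psmb9* lie inside those models, and that of *Psmb5* lies inside in part. The marked match begins 47 bases before the start in *Psmb5*, 9 bases before it in *Psmb6*, 97 bases before it in *Psmb8* and 8 bases before it in *Psmb9*.

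Promoter windows of RefSeq, from 250 bases before to 50 bases after a start, covered 38 of the 45 genes in 41 windows, and *Psma8*, *Psmb1*, *Psmb2*, *Psmb7*, *Psmc3*, *Psmd3* and *Psmd7* had no window. Searched on both strands, TGACNNNGC stood in 6 of the 41 windows (14.6%) and in 12.4% of all 32851 windows of the same length. The genes were *Psmb5*, *Psmb6*, *Psmc6*, *Psmd9*, *Psmd12* and *Psme4*. TTCNNNGAA stood in 2 windows (4.88% against 8.30% of all), those of *Psmb8* and *Psmd2*. GAAANNGAA, the core of sites for interferon regulatory factors, stood in 6 windows (14.6% against 8.56%), those of *Psmb3*, *Psmb4*, *Psmc2*, *Psmd4*, *Psmd9* and *Psme1*. CCAAT stood in 15 windows (36.6% against 37.4%). The window of *Psmb10* held none of the 4 motifs, and no difference between constitutive and inducible genes was tested. A match of letters is a description of the window and was not tested as a site.

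Proteasome transcripts were abundant and their levels spread widely between subunits. Compared per length, as normalized counts per kb of merged exons, *Psmb8* had the highest WT mean of the tested genes at 821 ± 61.7 (SD, n = 3), followed by the structural core subunit *Psmb4* at 809 ± 37.5, the activator *Psme2* at 757 ± 42.1 and the alpha subunit *Psma6* at 733 ± 43.3. The WT libraries of these 4 genes overlapped between neighbours in this order. The lowest subunit-related value was that of the assembly chaperone *Psmd9*, at 15.7 ± 1.84, and *Psmc3ip* had 28.9 ± 6.15.

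Within each role the levels per kb of merged exons were also uneven. Among the alpha subunits, *Psma6* was highest and *Psma3* lowest, at 215 ± 8.09. *Psmb4* led the beta subunits, and the catalytic *Psmb7* was the lowest of them at 243 ± 12.9. *Psmc1* led the ATPases at 432 ± 34.5, and *Psmc2* stood at 57.5 ± 1.05. *Psmd8*, a subunit of the lid of the cap, led the other cap subunits at 540 ± 33.0, while *Psmd11*, a scaffold of the lid, stood at 57.2 ± 6.93. Among activators *Psme2* was highest and *Psme2b* lowest, at 81.4 ± 17.1. The median WT level was 391 for alpha subunits, 403 for beta subunits, 296 for the immunoproteasome, 317 for the ATPases, 168 for the other cap subunits and 302 for the activators.

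The length used decides part of this order. The merged exons of a gene include those of isoforms with retained introns or long ends, and per kb of coding length the same medians were 1418, 1035, 1650, 632, 361 and 1167. *Psmb8* remained the highest gene on coding length, at 3352 normalized counts per kb in WT. Several extremes within roles changed. On coding length *Psma7* (1779 in WT) was the highest alpha subunit and *Psma5* (715) the lowest. *Psmb1* (2572) was the highest beta subunit and *Psmb5* (479) the lowest. *Psmc6* (800) led the ATPases, and *Psmd7* (195) was the lowest other cap subunit. *Psmc2*, *Psmd8*, *Psme2* and *Psme2b* kept their places within their roles. *Psme2b* lay below *Psmd9* on this length. On either length the cap subunits other than ATPases had the lowest median of these 6 roles. The 3 chaperones of cap assembly, which are not among the 6, had lower WT medians, 67.6 per kb of merged exons and 250 per kb of coding length.

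**Figure D1:**
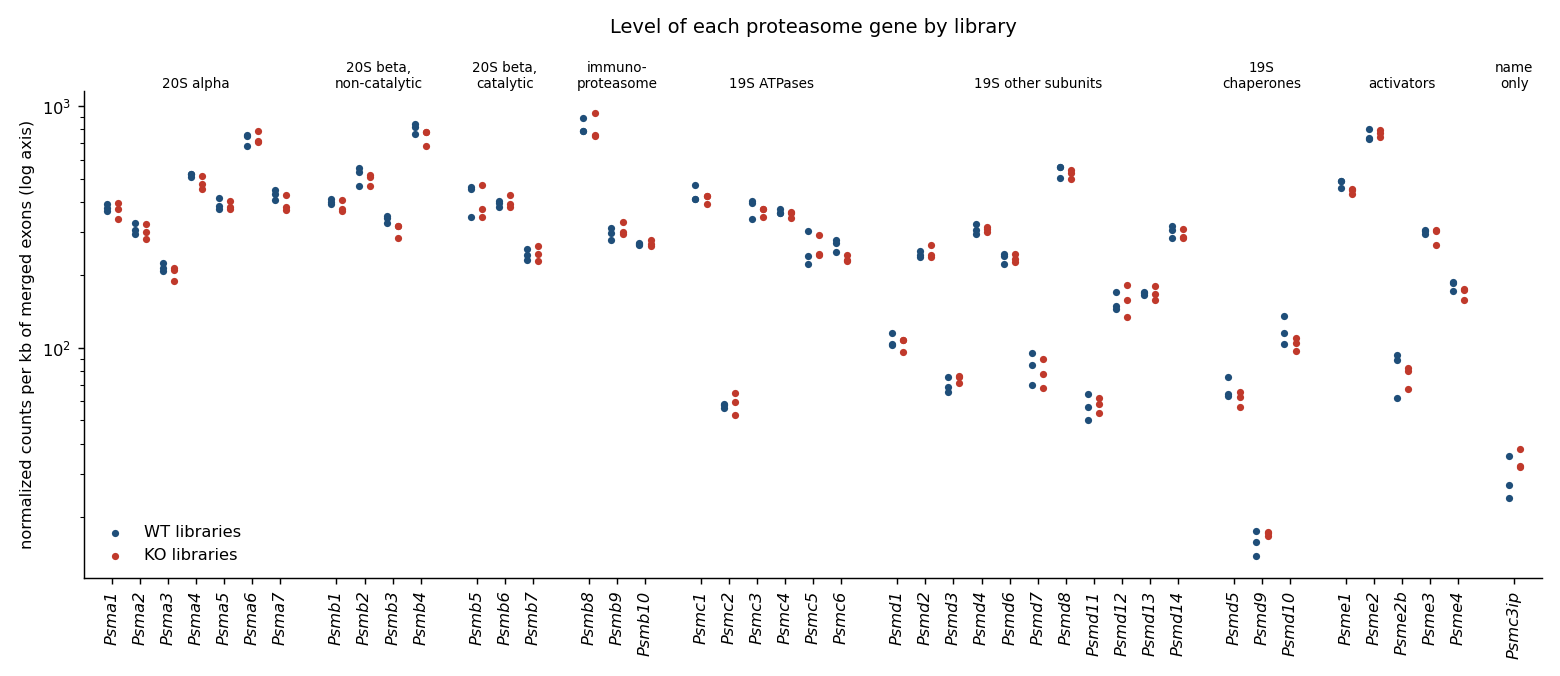
Normalized counts per kb of merged exons (log axis) of the 43 tested genes, by role, with 1 point for each WT (blue) and KO (red) library. *Psmb8*, *Psmb4*, *Psme2* and *Psma6* sit near the top and *Psmd9* at the bottom, and apart from *Psmb3*, *Psmc6* and *Psme1* the KO and WT points of a gene overlap.

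*Psma8*, an alpha subunit of the testis, and *Psmb11*, the catalytic subunit of the thymic cortex, did not pass the mean of 10. *Psma8* had 0.944, 1.91 and 2.72 normalized counts in KO libraries 1, 2 and 3 and 1.89, 0 and 1.20 in WT libraries 1, 2 and 3, at or under the level of 3 fragments that a count of 0 allows (2.72 to 3.61 normalized counts per library, counting error only). *Psmb11* was at 0 in all 6 libraries, which lies under the same floor.

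The proteasome genes of the KO libraries lay close to the WT level. None of the 43 was called in limma (smallest adjusted p = 0.970), against a background of 0% of 12322 genes, and edgeR called none. DESeq2 called 0.232% of the 9894 genes to which it gave an adjusted p, and 0 of the 43. At an unadjusted p under 0.05 in limma, 1 gene was lower (*Psmc6*) and 0 were higher, against 3.03% lower and 1.67% higher of all genes tested; edgeR gave 1 lower and 0 higher, and DESeq2 0 of either.

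The log2 fold changes (KO over WT, on log2(normalized count + 1)) had a median of -0.04, beside 0.00067 over all genes tested. They ran from -0.19 for *Psmc6* to 0.25 for *Psmc3ip*, with 29 below 0 and 14 above. *Psmc3ip* has only the name in common and is counted among the 43, and the next highest value was 0.13 for *Psmd9*. The upper end rests on pair 1, since *Psmc3ip* had 0.05 without it. In pairs 1, 2 and 3, 30, 16 and 28 of the 43 genes were below 0, with medians of -0.06, 0.02 and -0.06, so pair 2 leaned the other way from pairs 1 and 3. Without pair 1 the median was -0.008, with 23 genes below 0 and 20 above. The 95% interval of the fold change lay within 0.5 of 0 on the log2 scale for 41 of the 43 genes, against 62.1% of all genes tested, and the exceptions were *Psme2b* and *Psmc3ip*. Abundance differs beside this, since the median was 817 normalized counts for the 43 genes and 179 for all genes tested.

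Differences between single libraries were small as well. The median coefficient of variation over the 6 libraries was 6.06% for the 43 genes, where counting alone gives a median of 3.50%, and 11.7% for all genes tested, where counting gives 7.58%. *Psmb10* was the steadiest, at 1.83%, which is under the 4.67% of counting alone. A spread at or under that of counting occurred in 4 of the 43 genes, against 2341 of all 12322 genes tested. *Psmc3ip* at 16.7% and *Psme2b* at 15.6% varied most and had the fewest fragments, followed by *Psmb5* at 14.5%, where counting gives 5.25%.

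Together the 45 genes took 0.557% ± 0.015 (SD, n = 3) of the fragments of a KO library and 0.560% ± 0.009 of a WT library. The log2 ratio of KO to WT share was -0.07, 0.04 and 0.004 in pairs 1, 2 and 3, with a mean of -0.009 ± 0.059 (SD, n = 3 pairs). The immunoproteasome genes took 0.0698% ± 0.0067 in KO and 0.0676% ± 0.0041 in WT, and the activators 0.0752% ± 0.0017 and 0.0763% ± 0.0016. With 3 pairs an exact two-sided sign-flip test cannot go below p = 0.25, so no test of these shares was made.

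**Figure D2:**
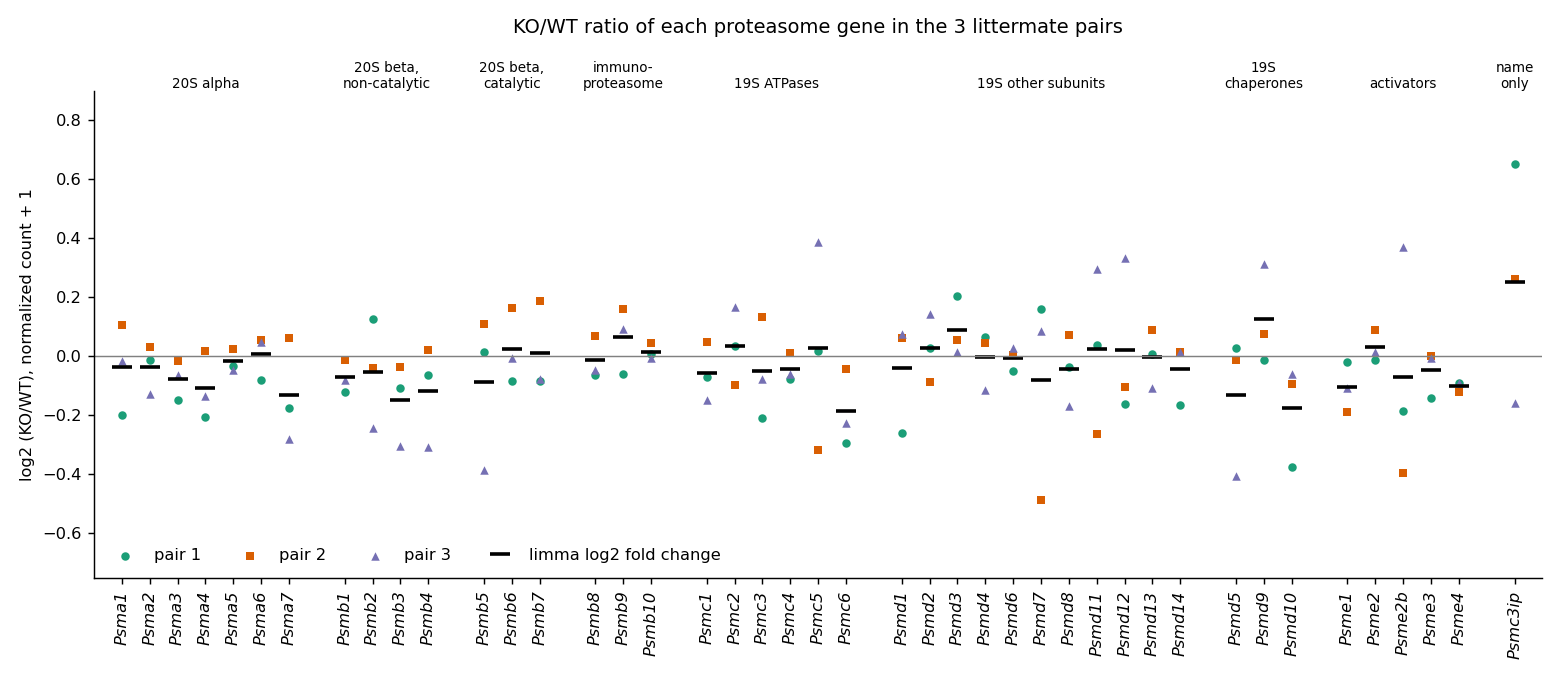
Log2 ratio of KO to WT of each tested gene in littermate pairs 1 (circles), 2 (squares) and 3 (triangles), with the limma log2 fold change as a black bar. The bars lie between -0.19 and 0.25, the latter for *Psmc3ip*, and for most genes the 3 pairs fall on both sides of 0.

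The catalytic core subunits showed no KO shift that the pairs shared. *Psmb5* (chr14:54614119-54618022, minus strand, GRCm38), the constitutive chymotrypsin-like subunit, had 422, 336 and 313 normalized counts in KO libraries 1, 2 and 3 and 417, 312 and 409 in WT libraries 1, 2 and 3. Both libraries of pair 1 and the WT library of pair 3 were high and the other libraries low, and the groups overlapped (log2 fold change -0.09 ± 0.11 (SE); 0.06 without pair 3). In Gencode vM21 a miRNA gene, *Mir686*, shares 109 of the 899 merged exon bases of *Psmb5* on the same strand. Whether fragments on these bases were counted for *Psmb5* was not tested. Its level may be understated, and the ratio of *Psmb8* to it and the share of inducible genes given below may be overstated.

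*Psmb6* (chr11:70525367-70527858, plus strand), the caspase-like subunit, had 716, 804 and 738 normalized counts in KO and 758, 716 and 742 in WT. *Psmb7* (chr2:38588036-38644087, minus strand), the trypsin-like subunit, had 781, 903 and 834 in KO and 826, 791 and 879 in WT. For both genes KO library 2 was the highest of the 6, and the groups overlapped. Their log2 fold changes were 0.03 ± 0.07 (SE) and 0.01 ± 0.08, and -0.04 and -0.08 without pair 2.

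The inducible subunits were as even. *Psmb8* (chr17:34197721-34201454, plus strand), which replaces *Psmb5*, had 2544, 3162 and 2571 normalized counts in KO and 2656, 3016 and 2655 in WT. Both libraries of pair 2 stood above the 4 others, whichever the genotype, and the log2 fold change was -0.01 ± 0.06 (SE; 0.02 when libraries are scaled by their total of fragments).

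*Psmb9* (chr17:34181987-34187764, minus strand), which replaces *Psmb6*, had 1100, 1217 and 1084 normalized counts in KO and 1146, 1088 and 1017 in WT. KO library 2 was highest and WT library 3 lowest, with overlap between the groups (log2 fold change 0.06 ± 0.07). *Psmb10* (chr8:105935735-105938444, minus strand), which replaces *Psmb7*, had 459, 475 and 451 in KO and 456, 460 and 453 in WT, a log2 fold change of 0.02 ± 0.07. Its 6 libraries were nearly level, and the groups overlapped. The 95% intervals of the log2 fold change were -0.16 to 0.13 for *Psmb8*, -0.10 to 0.23 for *Psmb9* and -0.15 to 0.18 for *Psmb10*.

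The balance of inducible over constitutive subunits was read as the ratio of levels per kb of merged exons within a library, which does not depend on how libraries are scaled. *Psmb8* over *Psmb5* was 1.60, 2.50 and 2.18 in KO libraries 1, 2 and 3 and 1.69, 2.57 and 1.72 in WT libraries 1, 2 and 3. Pair 2 had the highest ratio in both genotypes, and the log2 difference of KO from WT was -0.08, -0.04 and 0.34, a mean of 0.07 ± 0.23 (SD, n = 3 pairs). The value of pair 3 follows the low *Psmb5* of its KO library.

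*Psmb9* over *Psmb6* was 0.786, 0.775 and 0.751 in KO and 0.773, 0.777 and 0.702 in WT, with log2 differences of 0.02, -0.005 and 0.10 (mean 0.04 ± 0.05). *Psmb10* over *Psmb7* was 1.18, 1.06 and 1.09 in KO and 1.11, 1.17 and 1.03 in WT, with log2 differences of 0.09, -0.14 and 0.07 (mean 0.005 ± 0.13). In each of the 3 ratios the pairs lay on both sides of 0. The WT ratio itself depends on the length used: from merged exons to coding length it went from 1.96 to 7.04 for *Psmb8* over *Psmb5*, from 0.750 to 1.59 for *Psmb9* over *Psmb6*, and from 1.10 to 0.557 for *Psmb10* over *Psmb7*. The sum of the 3 inducible genes was 57.1% ± 2.06 (SD, n = 3) of all 6 catalytic genes in KO and 56.7% ± 3.17 in WT per kb of merged exons, and 69.0% ± 1.14 and 68.8% ± 2.29 per kb of coding length.

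**Figure D3:**
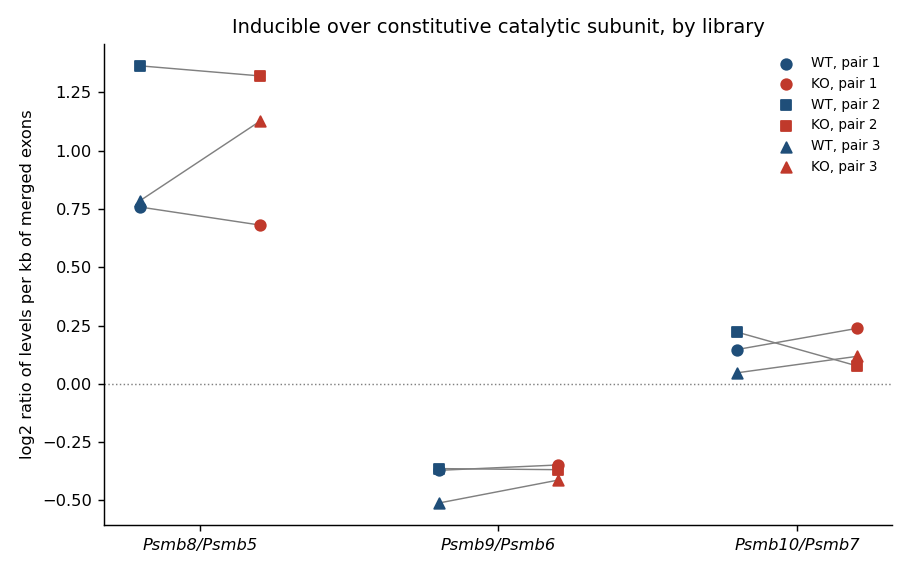
Log2 ratio of the level per kb of merged exons of each inducible catalytic subunit to the constitutive subunit it replaces, by library, with a line between the WT (blue) and KO (red) library of a littermate pair. *Psmb8* exceeds *Psmb5* in every library by 1.60 to 2.57 times, and the lines of the 3 pairs go both up and down for each ratio.

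Neighbouring genes did not share 1 pattern over the pairs. *Tap1*, which starts opposite *Psmb9*, had 2996, 2342 and 2950 normalized counts in KO and 3038, 2314 and 2861 in WT, so that both libraries of pair 2 were the lowest. *Psmb9* was not low in pair 2, although only 225 bases lie between the starts of both genes. In Gencode their exons share 212 bases on opposite strands, which the authors' counting by strand keeps apart. *Psmb8* was highest in pair 2. The plasmablast transcription factor *Xbp1* had 6743, 3806 and 4906 in KO and 4092, 3215 and 6463 in WT, and its lowest values were likewise those of pair 2. *Psmb5* was lowest in WT library 2, KO library 3 and KO library 2. What part differentiation state has in the levels of *Psmb5* or *Psmb8* was not tested.

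**Figure D4:**
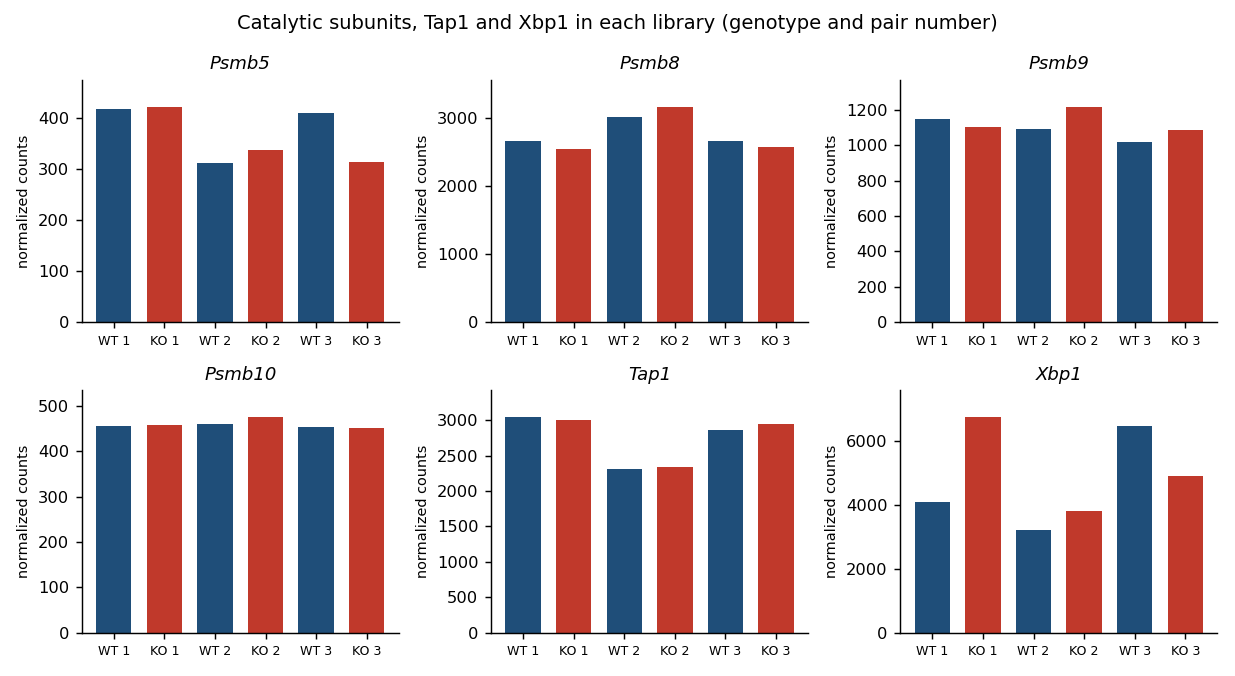
Normalized counts (bars from 0) of the constitutive subunit *Psmb5*, the inducible subunits *Psmb8*, *Psmb9* and *Psmb10*, and of *Tap1* and *Xbp1*, in each WT (blue) and KO (red) library ordered by pair. *Psmb10* is level at 451 to 475, *Psmb8* peaks in pair 2, and *Tap1* is lowest in pair 2.

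Core subunits without a catalytic site had medians slightly below 0, and none passed the test. The median log2 fold change was -0.04 over the alpha subunits (pairs -0.15, 0.03 and -0.06) and -0.09 over the 4 beta subunits without a catalytic site (pairs -0.09, -0.02 and -0.27). *Psmb3*, a beta subunit that shapes the ring, had 731, 734 and 653 normalized counts in KO and 788, 753 and 805 in WT. All KO libraries lay below all WT libraries, by a log2 fold change of -0.15 ± 0.08 (SE; adjusted p = 0.970 in limma; -0.07 without pair 3).

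*Psmb4*, a subunit without a catalytic site, had 1524, 1520 and 1328 in KO and 1593, 1498 and 1642 in WT, where KO library 3 was lowest and KO library 2 lay above WT library 2 (log2 fold change -0.12 ± 0.08; -0.02 without pair 3). *Psma7*, an alpha subunit, had 1173, 1313 and 1141 in KO and 1325, 1259 and 1386 in WT, with 2 KO libraries below every WT library (log2 fold change -0.13 ± 0.08). *Psma6* was at 881, 976 and 873 in KO and 931, 939 and 843 in WT, with overlap and a log2 fold change of 0.01 ± 0.07 (-0.01 without pair 2 and -0.01 without pair 3). *Psma3*, at 732, 819 and 835 in KO and 812, 828 and 873 in WT, was lower in KO in each pair, by a log2 fold change of -0.08 ± 0.07, although the groups overlapped.

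In the cap, the median log2 fold change was -0.05 over the ATPases and -0.002 over the other subunits. *Psmc6* (chr14:45329788-45349705, plus strand), an ATPase of the base, had 799, 849 and 810 normalized counts in KO and 979, 874 and 946 in WT. The groups did not overlap, and the pairs gave log2 ratios of -0.29, -0.04 and -0.22 (log2 fold change -0.19 ± 0.07 (SE), 95% interval -0.36 to -0.009, adjusted p = 0.970 in limma). *Psmc1* had 760, 822 and 822 in KO and 797, 795 and 911 in WT, and *Psmc2* 301, 265 and 326 in KO and 294, 283 and 290 in WT. Both ATPases overlapped between the groups (log2 fold changes -0.06 ± 0.07 and 0.04 ± 0.09).

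Among the other cap subunits, *Psmd3* was the single gene of the 43 that was higher in KO in each of the 3 pairs, against 11.7% of all genes tested. It had 377, 356 and 380 normalized counts in KO and 327, 342 and 377 in WT, with overlap (log2 fold change 0.09 ± 0.08 (SE)). *Psmd8* had 1663, 1615 and 1526 in KO and 1704, 1535 and 1715 in WT. KO library 3 was its lowest and the groups overlapped (log2 fold change -0.04 ± 0.07). *Psmd11* had 374, 341 and 395 in KO and 364, 410 and 321 in WT, and its pairs gave log2 ratios of 0.04, -0.26 and 0.30, so that the fold change of 0.02 ± 0.12 averages pairs of opposite direction.

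Spreads like that of *Psmd11* recurred in *Psmc5*, *Psmd7* and *Psmd12*, chosen after their values were seen. The log2 ratios of pairs 1, 2 and 3 were 0.02, -0.32 and 0.39 for the ATPase *Psmc5*, 0.16, -0.49 and 0.09 for the lid subunit *Psmd7*, and -0.16, -0.10 and 0.33 for the lid subunit *Psmd12*. *Psmc5*, at 338, 340 and 407 in KO and 333, 424 and 311 in WT, was highest in WT library 2 and next in KO library 3. *Psmd7*, at 176, 153 and 203 in KO and 158, 215 and 191 in WT, shared the same highest pair of libraries.

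Of the chaperones of cap assembly, *Psmd9* and *Psmd10* had few counts, and *Psmd5* had more. *Psmd5*, named after its values were seen, had 474, 453 and 411 normalized counts in KO and 465, 457 and 545 in WT. Its pairs 1 and 2 were nearly level and pair 3 gave a log2 ratio of -0.41 (log2 fold change -0.13 ± 0.10 (SE)). *Psmd10*, also known as gankyrin, had 153, 143 and 162 normalized counts in KO and 198, 153 and 169 in WT. It was lower in KO in each pair, mostly in pair 1, with overlap between the groups (log2 fold change -0.18 ± 0.11 (SE)). *Psmd9* had 126, 120 and 124 in KO and 127, 114 and 99.9 in WT, where WT library 3 was lowest (log2 fold change 0.13 ± 0.13). In *Psmd9* a lincRNA on the opposite strand, *Gm26745*, shares 1849 exon bases, and the authors counted by strand. *Psmc3ip*, outside the complex, had 68.9, 59.1 and 58.1 in KO and 43.4, 49.1 and 65.0 in WT. Its WT library 3 lay among the KO libraries, and the log2 fold change was 0.25 ± 0.21 (0.05 without pair 1 and 0.46 without pair 3).

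The activators open the core without the ATPase cap. *Psme1* and *Psme2*, which form a ring together and are raised by interferon, are neighbours on chromosome 14 (55578123 to 55581529 and 55587441 to 55591113). *Psme1* had 996, 951 and 1001 normalized counts in KO and 1009, 1085 and 1078 in WT. Every KO library lay below every WT library, and the log2 fold change was -0.11 ± 0.07 (SE; adjusted p = 0.970 in limma).

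*Psme2*, its partner in the ring, had 1409, 1365 and 1316 in KO and 1420, 1284 and 1302 in WT. It overlapped between the groups with a log2 fold change of 0.03 ± 0.06, so that the pair of ring partners had estimates of opposite sign, a difference that was not tested. *Psme2b*, an intronless copy of *Psme2* with a single exon of 837 bases, had 68.9, 56.2 and 67.2 in KO and 78.4, 74.2 and 51.8 in WT. Reads that *Psme2* and its copy share were left out by the authors' filter on mapping quality. The value of *Psme2b* (log2 fold change -0.07 ± 0.19, 0.09 without pair 2) is therefore uncertain, and the level of *Psme2* may be understated too. In Gencode vM21, *Psme2b* also shares 41 exon bases on the same strand with the gene *9930111J21Rik1*.

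*Psme3*, the nuclear relative of that ring, had 787, 906 and 893 in KO and 867, 905 and 896 in WT. KO library 1 was low and the 5 others lay within a narrow range (log2 fold change -0.05 ± 0.07). *Psme4*, a large nuclear activator that acts as a single chain, had 1454, 1325 and 1471 in KO and 1549, 1442 and 1565 in WT. Its pairs gave log2 ratios of -0.09, -0.12 and -0.09, the narrowest range of the 43 genes, and the log2 fold change was -0.10 ± 0.06 (adjusted p = 0.970 in limma). The groups overlapped, with WT library 2 below KO libraries 1 and 3.

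Counting directions over the 43 genes, 7 were lower in KO in all 3 pairs, against 13.1% of all genes tested. These were *Psma3*, *Psmb3*, *Psmc6*, *Psmd10*, *Psme1*, *Psme4* and, named after its values were seen, *Psmb1*. All KO libraries lay below all WT libraries in 3 genes (*Psmb3*, *Psmc6* and *Psme1*), against 3.44% of all genes tested, and above them in 0 genes, against 3.39%. The most negative log2 fold change of the 7 was -0.19, that of *Psmc6*. When libraries are scaled by their total of fragments, the split of signs over the 43 genes went from 29 below and 14 above 0 to 24 and 19. That scaling moved the calls at an unadjusted p under 0.05 over all genes from 373 lower and 206 higher to 294 and 302, and the median of all genes to 0.03.

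The deviations of the KO and the WT library from their group means correlated over all 12322 genes with r of 0.328, 0.685 and 0.170 in pairs 1, 2 and 3, and over the 43 genes with 0.12, -0.16 and -0.36. These are descriptions across genes, which are not independent replicates.

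Partner genes outside the naming rule were as close to WT. No gene was called in limma among 5 other subunits and regulators of the particle, 6 assembly factors, 9 genes that regulate proteasome expression or activity or bind the particle, 13 ubiquitin and shuttle genes and 11 genes of peptide loading and interferon response, with median log2 fold changes of 0.006, -0.03, -0.02, -0.03 and 0.05. *Nfe2l1*, the transcription factor that raises proteasome genes when proteasome activity drops, had 915, 868 and 1023 normalized counts in KO and 1020, 807 and 1017 in WT, with overlap (log2 fold change -0.01 ± 0.07 (SE); 0.02 when scaled by total and 0.06 without pair 1). *Ngly1*, an enzyme needed to activate it, had 280, 199 and 208 in KO and 290, 217 and 268 in WT, lower in KO in each pair (log2 fold change -0.18 ± 0.10). *Txnl1*, a redox protein bound to the cap, was at 732, 687 and 681 in KO and 817, 742 and 715 in WT, with a log2 fold change of -0.11 ± 0.06.

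*Pomp*, the chaperone on which new core particles are built, had 584, 641 and 635 in KO and 577, 712 and 742 in WT, and its pairs differed in direction (log2 fold change -0.12 ± 0.08). *Psmg1*, another core assembly chaperone, had 138, 169 and 149 in KO and 163, 157 and 177 in WT (-0.13 ± 0.12). *Psmf1*, an inhibitor of the core in vitro, had 136, 140 and 145 in KO and 146, 101 and 106 in WT, where WT library 1 lay above the KO libraries (0.27 ± 0.15; 0.46 without pair 1 and 0.17 without pair 2). *Uchl5*, a deubiquitinase of the cap, had 157, 172 and 193 in KO and 130, 174 and 167 in WT (0.15 ± 0.11).

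The ubiquitin shuttle gene *Ubqln2* had 95.3, 79.1 and 66.3 in KO and 67.1, 70.1 and 56.6 in WT (0.30 ± 0.15). Of the genes that share the peptide pathway with the immunoproteasome, *Tap1* had a log2 fold change of 0.01 ± 0.06. *Tap2*, the other chain of the transporter, had 985, 980 and 1015 in KO and 928, 926 and 957 in WT. Every KO library of *Tap2* lay above every WT library, by a log2 fold change of 0.08 ± 0.06 (adjusted p = 0.970 in limma). *Nlrc5*, the activator of MHC class I genes, had 1218, 1328 and 1411 in KO and 1165, 1242 and 1198 in WT (0.13 ± 0.07), and *B2m*, the light chain of MHC class I, had 10077, 9403 and 9708 in KO and 11588, 9464 and 11558 in WT (-0.15 ± 0.07). Both overlapped between the groups.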

How the data were processed

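RNA from 3 TENT5C KO and 3 WT B cell cultures, 1 littermate pair per replicate number, was sequenced as 75-nt paired ends. The authors trimmed reads with cutadapt, aligned them with STAR 2.6.1a to GRCm38 (mm10), counted fragments by strand on Gencode vM19 exons with featureCounts (Subread 1.6.3, mapping quality of at least 10), and divided by DESeq2 1.22 size factors; tools and build are also in the submitters' processing notes. The deposited signal is these normalized counts, so a shift shared by most transcripts cannot be seen, and reads common to near-identical genes were left out. Symbols, positions and lengths came from Gencode vM21 (54409 of 54446 identifiers matched, 37 did not). All values above 0 (100%, tolerance 0.001) were whole fragments once the library's step was divided out.

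The test was limma 3.58.1 in R 4.3.3 (trend; pair as block) on log2(normalized count + 1) over 12322 genes with a mean of at least 10, two-sided, Benjamini-Hochberg adjusted, threshold 0.05; edgeR 4.0.16 and DESeq2 1.42.0 on recovered fragments, other pseudocounts, filters and scalings, no block and single pairs left out were alternatives. The scripts were tested on simulated data with planted changes larger than any of the proteasome genes. That test does not show whether shifts as small as theirs would be called. The design pairs littermates. Over all genes tested, the libraries of a pair deviated together most in pair 2 and only weakly in pair 3 (r of 0.328, 0.685 and 0.170 in pairs 1, 2 and 3). No library was a duplicate. Standard errors are from limma. The members and the partner and marker lists were chosen with earlier results of these data known. Named were all catalytic, inducible and activator genes, the 4 lowest and 4 highest fold changes of the rest, the most and least abundant gene of each role, genes not tested or not overlapping, and of each partner list the 2 lowest p-values, *Nfe2l1*, *Pomp*, *Psmf1*, *Tap1* and *Tap2*. A gene that this rule names is not reported here. Depth limits precision most for *Psmc3ip*, *Psme2b*, *Psmd9* and *Psmd10*.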

Additional observations from a re-analysis of the deposited data

How the results depend on the processing

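No proteasome gene was called under any alternative run, and the median log2 fold change of the 43 genes lay between -0.06 and -0.01 when 1 pair was left out. A fit with no replicate block gave -0.04, with 0 genes called and a smallest adjusted p of 1.00 in limma, so the pairing changed no call. Of all genes, DESeq2 called 22 lower and 1 higher, and leaving out a pair gave 0 to 168 lower and 0 to 3 higher. The medians of the cap ATPases and of the other cap subunits moved to -0.012 and 0.032 when scaled by total, and ranged from -0.089 to 0.0025 and from -0.030 to 0.016 without a pair. Coding length in place of exon length moved the log2 WT ratios to 2.82 (*Psmb8* over *Psmb5*), 0.67 (*Psmb9* over *Psmb6*) and -0.84 (*Psmb10* over *Psmb7*), and the WT median levels to 1418 (alpha), 1035 (beta), 1650 (immunoproteasome), 632 (ATPases), 361 (other cap subunits) and 1167 (activators), by the construction of that setting. Scaling by total turned the log2 fold changes of *Psmb8* (0.021) and *Nfe2l1* (0.020). Leaving out a pair gave ranges that cross 0 for *Tent5c* (-0.033 to 0.52), *Psma6* (-0.014 to 0.053), *Psmb5* (-0.18 to 0.063), *Psmb6* (-0.044 to 0.080), *Psmb7* (-0.079 to 0.057), *Psmb8* (-0.054 to 0.011), *Psmc2* (-0.030 to 0.10), *Psmd8* (-0.10 to 0.019), *Psmd11* (-0.11 to 0.17), *Psme2b* (-0.29 to 0.093), *Nfe2l1* (-0.074 to 0.057) and *Tap1* (-0.0014 to 0.031). It moved these log2 fold changes by over 1.5 times on 1 side of 0: *Ngly1* (-0.25 to -0.087), *Nlrc5* (0.080 to 0.17), *Pomp* (-0.19 to -0.066), *Psma3* (-0.11 to -0.040), *Psma7* (-0.23 to -0.057), *Psmb10* (0.0017 to 0.027), *Psmb3* (-0.20 to -0.072), *Psmb4* (-0.19 to -0.021), *Psmb9* (0.016 to 0.13), *Psmc1* (-0.11 to -0.010), *Psmc3ip* (0.051 to 0.46), *Psmd10* (-0.23 to -0.077), *Psmd3* (0.035 to 0.13), *Psmd9* (0.032 to 0.19), *Psme1* (-0.15 to -0.063), *Psme2* (0.0020 to 0.052), *Psme3* (-0.071 to -0.0010), *Psmf1* (0.17 to 0.46), *Psmg1* (-0.25 to -0.070), *Ubqln2* (0.20 to 0.36) and *Uchl5* (0.096 to 0.24). Other causes were not tested. Over 38 named genes, 479 of the values under an alternative kept their direction and side of the threshold and 15, in 11 genes, reversed.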
